A study of Drosophila melanogaster with 12 samples.

Results

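Among the genes of the fruit fly Drosophila melanogaster that the deposited table lists under a CG number, 159 of 7085 reached a set level in Pm2 neurons and stood there well above 3 other cell populations, and these 159 genes are described here. A CG number is the identifier that the fly genome project gave to a predicted gene. Members were selected on measured levels: a gene was taken in when its Pm2 mean was at least 2 CPM (counts per 1000000 of the library total) and at least 2 times the mean of each of the other 3 populations. A further 8 CG names were set aside by the same rule. The members' higher level in Pm2 is therefore how they were chosen and not a result, and no test is given for it. For scale, 2937 CG names reached 2 CPM in Pm2, so 2778 others did so without being members. These missed the ratio or were among the 8 names set aside.

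The study sorted nuclear-labelled cells from dissected brains of 3-day-old Canton-S adults and sequenced 4 populations with 3 libraries each: Pm2 neurons, T4 neurons, neurons in general under titles naming Elav, and glia under titles naming Repo. In every group a Gal4 driver line switched on UAS-Red Stinger, a red fluorescent protein carried to the nucleus, and fluorescent cells were collected by flow sorting. Each population has its own driver line, so cell population and driver cannot be told apart. Nothing in the labels ties the 3 libraries of a population to separate flies, and the p-values below measure the spread between libraries. A general neuron sort can itself hold Pm2 and T4 cells. In such pooled libraries, fewer cells of a type and less RNA per cell cannot be told apart.

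Pm2 cells are local neurons of the proximal medulla, a deep layer of the second optic neuropil, and they use the inhibitory transmitter GABA. T4 cells receive medulla input and are among the first direction-selective neurons of the fly's motion pathway, using acetylcholine. Elav is an RNA-binding protein of neurons, and Repo is a homeodomain factor of most fly glia.

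Library totals ran from 35012892 to 57811629 counts, and 9706 to 12742 genes had a count. The summed level of Gad1 and VGAT, which make GABA and load it into vesicles, was 12446 to 13416 CPM in Pm2, 139 to 181 CPM in T4, 31.1 to 43.8 CPM in glia and 2013 to 2134 CPM in neurons. Of 10 glial markers, repo and Indy had no count in any Pm2 library, and the list summed to 31.0 to 57.1 CPM in Pm2, against 35586 to 39919 CPM in glia. Of the GABA pair, Gad1 averaged 12438 CPM in Pm2, 23.5 CPM in T4, 35.8 CPM in glia and 1813 CPM in neurons. VGAT averaged 494 CPM in Pm2, 132 CPM in T4, 3.05 CPM in glia and 276 CPM in neurons, with Pm2 at 1.79 times neurons. The Pm2 libraries thus had Gad1 far above the other populations, VGAT less so, and glial markers at low levels. The glial list summed to 165 to 180 CPM in T4 and 558 to 873 CPM in neurons. For 11 markers of neurons in general the sum was 15787 to 17078 CPM in Pm2 and 670 to 853 CPM in glia. It was 22091 to 23240 CPM in T4 and 22538 to 23882 CPM in neurons. A list of 5 tracheal markers summed to 11.6 to 14.6 CPM in Pm2, 0.103 to 1.71 CPM in T4, 39.3 to 48.3 CPM in glia and 0.314 to 1.37 CPM in neurons, and its part in the members' levels was not tested.

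Together the 159 members took 5.90 to 6.05% of all counts in Pm2, 0.803 to 0.852% in T4, 0.294 to 0.352% in glia and 1.35 to 1.46% in neurons. One gene, CG14989, accounted for much of this. Without it the share was 3.85 to 3.88% in Pm2, 0.799 to 0.848% in T4, 0.289 to 0.342% in glia and 0.934 to 0.988% in neurons. The next highest population was neurons for 100 members, T4 for 41 and glia for 18. The ratio of Pm2 to that population had a median of 3.37, with 24 members at 10 or more, 36 between 4 and 10 and 99 between 2 and 4. All 159 matched the annotation. Of these, 158 are protein coding and 1, CG31526, is a long non-coding RNA, while 139 are still known by a CG number and 20 carry another symbol today.

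**Figure D1:**
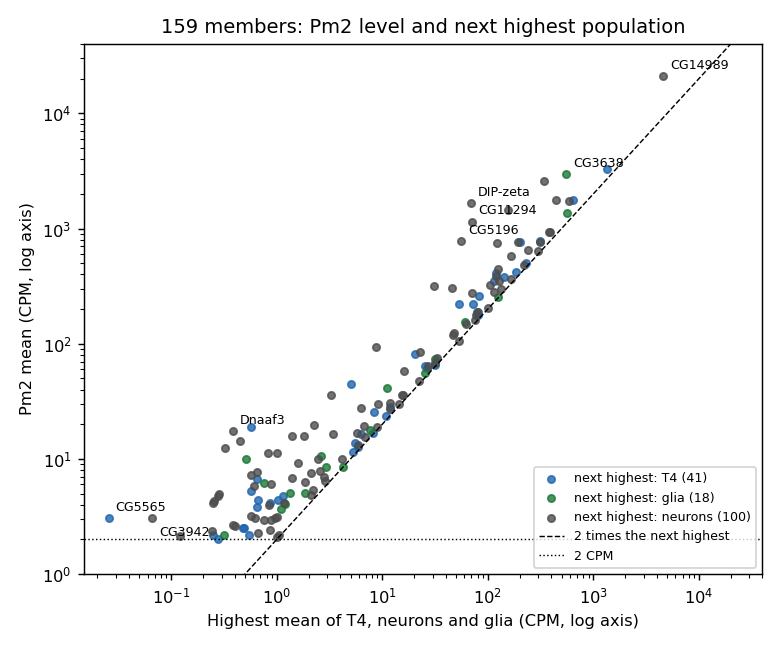
Each point is 1 of the 159 members, with its Pm2 mean (vertical, CPM, log axis) against the highest mean among T4, neurons and glia (horizontal, CPM, log axis), coloured by which of these was highest; a horizontal value below the neuron floor of 0.0255 CPM is drawn there. The dashed and dotted lines are the ratio of 2 and the level of 2 CPM that define membership, and CG14989 stands at the top right while CG5565 is at the far left.

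At the edges of the rule the margins were narrow. Just above 2 CPM stood CG14416 at 2.04 CPM, CG34325 at 2.09 CPM and CG14424 at 2.14 CPM in Pm2, and just below it CG32459 at 1.97 CPM, with CG4438 and CG9676 at 1.93 CPM each. On the ratio, CG9270 and CG12541 stood at 2.01 and CG8248 at 2.03, while CG3792, CG30424 and CG4061 missed at 1.98. To describe how steady the choice was, members were also chosen on 2 of the 3 libraries of each population and read in the library left out. The rule was met again there by 119 of 165 genes, 128 of 162 genes or 134 of 164 genes, according to which column number was left out. The left-out Pm2 library was the highest of the 4 for 163, 156 and 162 of them. That library has the same driver as those used for the choice, and no like share was computed over all genes. These counts are therefore no independent evidence for a higher level in Pm2.

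The highest member, by CPM and per kilobase, was CG14989, a gene of chromosome 3L that the annotation used here gives no function. It had 21938, 20464 and 20319 CPM in Pm2, 71.9, 41.9 and 38.7 CPM in T4, 38.9, 51.6 and 106 CPM in glia, and 4844, 4741 and 4066 CPM in neurons. The populations fell into 3 levels, with every Pm2 library above every neuron library, and T4 and glia overlapping far below both. Per kilobase of exon, which allows genes to be set side by side, its Pm2 level was 7167 CPM per kb. The next members on that scale were CG8861 at 969 CPM per kb, CG11294 at 890 CPM per kb, CG15765 at 756 CPM per kb and DIP-zeta (CG31708) at 469 CPM per kb.

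The other abundant members differed in which population came second. CG15765 had 3219, 3417 and 3320 CPM in Pm2, 1403, 1422 and 1249 CPM in T4, 5.87, 6.11 and 18.5 CPM in glia, and 744, 652 and 780 CPM in neurons. It was thus a neuronal gene in these libraries, with T4 second. CG8861 had 2864, 2465 and 2472 CPM in Pm2, 231, 246 and 219 CPM in T4, 14.7, 11.1 and 9.32 CPM in glia, and 303, 373 and 347 CPM in neurons. CG3638, for which the RefSeq table gives the synonym TTYH2, the name of a mammalian tweety-family membrane protein, was the steadiest member across the Pm2 libraries. It had 2996, 2938 and 2963 CPM in Pm2, 275, 297 and 263 CPM in T4, 567, 433 and 646 CPM in glia, and 400, 534 and 421 CPM in neurons. Unlike the previous pair, its second population was glia, and the neuron and glia libraries overlapped.

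CG45263 was at 1704, 1860 and 1786 CPM in Pm2, 73.9, 88.2 and 94.9 CPM in T4, 5.87, 1.96 and 2.94 CPM in glia and 419, 476 and 446 CPM in neurons. CG43347 was at 1408, 1420 and 1508 CPM in Pm2, 104, 116 and 137 CPM in T4, no more than 0.989 CPM in any glial library, and 131, 186 and 154 CPM in neurons. The neuron levels of CG43347 overlapped those of T4 at the low end. CG11537 and CG30389 were broader, with the next population at a ratio of 2.75 and 2.97. CG10543 was the one of the 10 most abundant in which glia came close to the cap, at 1337, 1348 and 1414 CPM in Pm2, against 563, 518 and 606 CPM in glia and 267, 439 and 354 CPM in neurons.

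**Figure D2:**
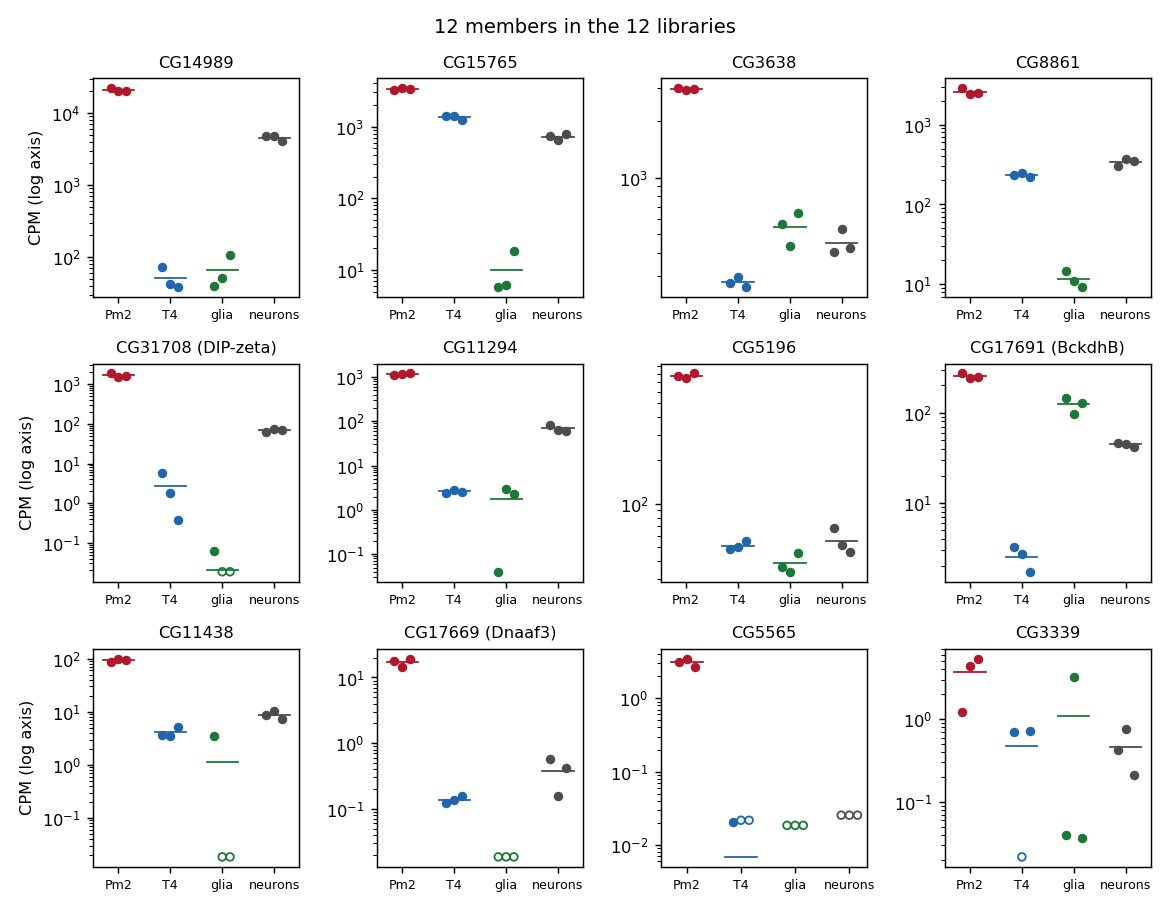
The level of 12 members in the 12 libraries (vertical, CPM, a separate log axis for each gene), with Pm2 left of T4, glia and neurons; points are libraries, bars are means of 3, and open circles are libraries without a count, drawn at the floor of 3 counts over that population. CG14989 reaches 20319 CPM or more in Pm2 and 4066 CPM or more in neurons, whereas CG17691 has glia second, at 97.8 to 146 CPM.

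A second view is by how far Pm2 stood above the rest. Among abundant genes the clearest was DIP-zeta (CG31708), one of the immunoglobulin-domain DIP proteins that bind Dpr partners on other neurons. It had 1875, 1542 and 1593 CPM in Pm2, 5.82, 1.82 and 0.377 CPM in T4, a count in 1 of the 3 glial libraries, at 0.0601 CPM, and 63.6, 74.6 and 68.3 CPM in neurons. The Pm2 mean was 24.3 times that of neurons. CG11294 had 1102, 1141 and 1202 CPM in Pm2, 2.44, 2.87 and 2.59 CPM in T4, 0.0401, 3.00 and 2.33 CPM in glia, and 84.5, 65.3 and 60.4 CPM in neurons, so that T4 and glia stayed at 3.00 CPM or less. CG5196, in contrast, was even in the other populations, at 771, 749 and 802 CPM in Pm2, 48.2, 49.8 and 54.9 CPM in T4, 36.7, 33.7 and 45.4 CPM in glia, and 68.0, 51.9 and 46.3 CPM in neurons.

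The largest ratios belonged to low genes. CG5565 had 3.13, 3.46 and 2.63 CPM in Pm2, a single count in 1 T4 library, and none in neurons or glia. Against neurons, taken at the limit of 3 counts over the 3 libraries, Pm2 was at least 121-fold higher. CG31659, the next member along chromosome 2L (1358925 to 1359790, with CG5565 at 1354911 to 1355924), had 10.6, 11.0 and 8.33 CPM in Pm2, none, 0.359 CPM and none in T4, none, 1.23 and 0.294 CPM in glia, and none, 0.337 and 0.183 CPM in neurons. Dnaaf3 (CG17669), named for a factor that assembles the dynein motors of cilia, had 18, 14.6 and 19.4 CPM in Pm2, 0.124, 0.135 and 0.155 CPM in T4, no count in glia, and 0.571, 0.157 and 0.418 CPM in neurons. In each of these genes every Pm2 library was above every other library. Over the next highest population the ratio was 45.3 for Dnaaf3 and 19.6 for CG31659. The other ratios of this size were 46.7 for CG3942, 38.6 for CG41520, 33.5 for CG3014, 32.1 for Alp5 (CG10827, an alkaline phosphatase), and 17.6 each for CG13643 and CG14424.

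Over all members, the neuron mean was 25.3% of the Pm2 mean at the median (quartiles 12.2 and 38.8%), the T4 mean 13.9% and the glial mean 2.16%. In glia 37 members had no count, in T4 4 and in neurons 1. A count of 0 over the 3 libraries allows up to 0.0185 CPM in glia, 0.0217 CPM in T4 and 0.0255 CPM in neurons, and these limits cover counting error only. The lowest Pm2 library was above all 9 other libraries for 157 of 159 members, where the share among all 10528 genes tested was 10%. The 2 exceptions were CG9270 and CG3339, and the choice of members fixes most of this count.

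Low members were less steady between Pm2 libraries. The coefficient of variation over the Pm2 libraries had a median of 4.42% in the 53 members at 100 CPM or more, 11.8% in the 49 between 10 and 100 CPM and 18.2% in the 57 between 2 and 10 CPM. It exceeded 50% in 2 members. CG3339, for which the RefSeq table gives the synonym DHC5, a dynein heavy chain, had 1.21, 4.44 and 5.38 CPM in Pm2, 0.702, 0 and 0.710 CPM in T4, 0.0401, 3.19 and 0.0367 CPM in glia, and 0.428, 0.764 and 0.209 CPM in neurons. One glial library was above the lowest Pm2 library, so Pm2 and glia overlapped. CG11449 had 2.59, 6.42 and 8.33 CPM in Pm2, and CG43742, CG34216 and CG32572 came next in variation, at 48.4, 47.1 and 37.8%. Pm2 library 1 was the lowest of the 3 for 81 of 159 members, library 2 for 45 and library 3 for 33. Library 1 was the highest for 44 members, library 2 for 50 and library 3 for 65. No like count was made over all genes, so this order may not be particular to the members.

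Among members whose annotation names a protein family, metabolic enzymes were the most frequent class, with 5. BckdhB (CG17691), a subunit of the complex that breaks down branched-chain amino acids, is described with the tests below, since glia carried it too. Sccpdh1 (CG2604) averaged 68.2 CPM in Pm2, 10.5 CPM in T4, 26.1 CPM in glia and 31.8 CPM in neurons. Neither of these enzymes was far above its next population, with ratios of 2.05 for BckdhB and 2.14 for Sccpdh1.

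Motor-related genes numbered 4. KIF26 (CG14535), a kinesin family name, averaged 188 CPM in Pm2, 81.3 CPM in T4, 1.23 CPM in glia and 65.2 CPM in neurons. Myo81F (CG45784), an unconventional myosin, had 24.4, 17.9 and 16.8 CPM in Pm2, 1.57, 0.651 and 0.931 CPM in T4, 0.982, 0 and 0.752 CPM in glia, and 1.57, 1.75 and 3.48 CPM in neurons. Dnaaf3 and CG3339 are the remaining pair.

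Cell surface, junction and signalling names were also present. side-V (CG34371), a Sidestep-family immunoglobulin protein of the kind that pairs with Beat proteins, had 451, 455 and 442 CPM in Pm2, 56.7, 61.2 and 56.0 CPM in T4, 0.120, 0.503 and 1.38 CPM in glia, and 119, 125 and 129 CPM in neurons. Its Pm2 and neuron libraries did not overlap, and glia had next to none. smash (CG43427), a protein of adherens junctions, averaged 759 CPM in Pm2, 204 CPM in T4, 151 CPM in glia and 167 CPM in neurons. CG34357, listed with the synonym GYC, averaged 413 CPM in Pm2, 119 CPM in T4, 1.59 CPM in glia and 100.0 CPM in neurons. TBC1D16 (CG5337), whose mammalian namesake inactivates Rab proteins, averaged 418 CPM in Pm2, 186 CPM in T4, 6.07 CPM in glia and 180 CPM in neurons. The kinase Nuak (CG43143) averaged 279 CPM in Pm2, 81.8 CPM in T4, 38 CPM in glia and 114 CPM in neurons. CG11638, with the calcium-binding synonym CBP3, averaged 190 CPM in Pm2, 53.3 CPM in T4, 3.79 CPM in glia and 78.3 CPM in neurons.

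The smaller families were the WUN-like lipid phosphatase relatives CG11438 and CG11425, the Jumonji-domain names JMJD7 (CG10133) and HSPBAP1 (CG43320), and 3 names of the serine protease family, CG4653, CG9673 and CG43742. CG11438 averaged 93.3 CPM in Pm2, 4.08 CPM in T4, 1.15 CPM in glia and 8.76 CPM in neurons. JMJD7 averaged 47.9 CPM in Pm2, 17.2 CPM in T4, 15.4 CPM in glia and 22.2 CPM in neurons.

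Differences of the members among T4, neurons and glia were tested with edgeR's quasi-likelihood test on all 10528 genes with enough counts. The p-values were adjusted by Benjamini and Hochberg and called below 0.05. All 159 members were tested, with 147, 138 and 121 of them holding 10 counts in 3 of the 6 libraries compared in T4 against neurons, glia against neurons and T4 against glia. The count filter ran over all 12 libraries, so the remaining members passed it only with libraries outside the contrast. They stay in the shares below, and their low counts limit what could be called. How many of all genes tested passed in this way was not counted. The shares of members and of all genes called are therefore not a like comparison. The rule caps each member at 50% of its Pm2 level in each of these populations, so the contrasts are not independent of the choice of members. A general neuron sort can hold Pm2 cells, and what these add to the neuron levels was not tested. The 3 contrasts share libraries with one another.

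In T4 against neurons 4 members were higher in T4 and 34 lower. A fit of only the 6 libraries compared kept 147 members and called 11 of them higher. Over all genes, T4 was higher in 1585 of 9322 in that fit and in 913 of 10528 in the fit of all 12 libraries. In the fit of all 12 libraries 23.9% of members were called, where the background over all genes was 23.2%. The first share includes members with few counts in these 6 libraries, so no conclusion is drawn from how near the shares are. By direction, 2.52% were higher against a background of 8.67%, and 21.4% lower against 14.5%. The median log2 difference was -0.57 over members and -0.06 over all genes tested. On CPM ratios with absent genes set to their floor, these medians were -0.51 and 0.00, leaving out 1 member and 172 genes that were at the floor in both.

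In glia against neurons 10 members were higher in glia and 91 lower. Called members made up 63.5%, against a background of 68.7%, with 6.29% higher against 30.9% and 57.2% lower against 37.8%. The median log2 difference was -3.05 over members and -0.17 over all genes, and with absent genes at their floor it was -2.80 and -0.52. In T4 against glia 80 members were higher in T4 and 17 lower, or 61.0% against a background of 67.8%, with 50.3% higher against 35.6% and 10.7% lower against 32.2%. A fit of only the 6 libraries compared kept 121 members and called 61 of them, with 48 higher in T4. Scaling by library totals alone left 11 lower. Over all genes, the fit of 6 libraries called 3032 higher and 3133 lower of 9536. Library totals alone gave 4577 higher and 2767 lower of 10528, where the main fit gave 3748 and 3390. In the fit of all 12 libraries the medians of log2 differences in T4 against glia were 1.76 and 0.06, and 2.17 and 0.50 with absent genes at their floor. In 47 members no contrast was called, among them CG5565, which had next to no counts in T4, neurons or glia. No like count was made over all genes.

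**Figure D3:**
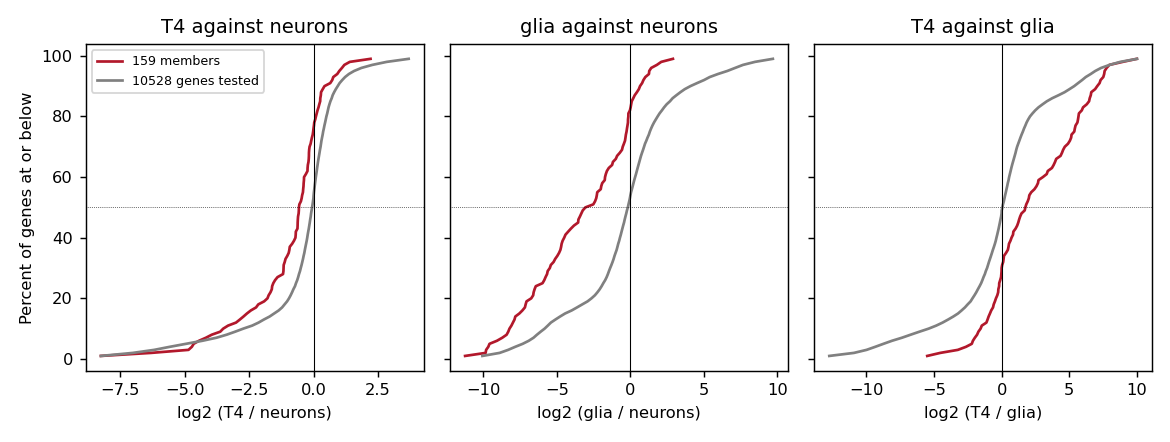
Cumulative percent of genes (vertical) at or below each log2 difference (horizontal, edgeR fit) in T4 against neurons, glia against neurons and T4 against glia, for the 159 members (red) and all 10528 genes tested (grey), from the 1st to the 99th percentile. The curves cross the dotted median line at -0.57 against -0.06, -3.05 against -0.17 and 1.76 against 0.06.

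Members lower in T4 than in neurons were led by BckdhB (CG17691). It had 271, 240 and 248 CPM in Pm2, 3.22, 2.70 and 1.73 CPM in T4, 146, 97.8 and 128 CPM in glia, and 46.7, 45.4 and 41.4 CPM in neurons. T4, neurons and glia thus formed 3 steps without overlap. The log2 difference of T4 against neurons was -4.19 ± 0.25 (SE, edgeR adjusted p = 2.45e-06), that of glia against neurons 1.84 ± 0.22 (edgeR adjusted p = 1.64e-05) and that of T4 against glia -6.03 ± 0.27 (edgeR adjusted p = 5.56e-09). CG14989, whose T4 and neuron libraries, given above, did not overlap, differed by -6.55 ± 0.43 in T4 against neurons (edgeR adjusted p = 3.86e-06). CG17544 had 1.01, 1.75 and 2.48 CPM in T4, 33.6, 39.4 and 21.7 CPM in glia, and 20.6, 19.95 and 20.02 CPM in neurons. Its log2 difference was -3.59 ± 0.30 in T4 against neurons (edgeR adjusted p = 1.73e-05) and -4.58 ± 0.31 in T4 against glia (edgeR adjusted p = 1.49e-07). CG44153 had 13, 5.62 and 4.08 CPM in T4 and 108, 132 and 125 CPM in neurons, a log2 difference of -4.08 ± 0.41 (edgeR adjusted p = 7.65e-05).

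The 4 members higher in T4 than in neurons were all low or moderate genes. CG9270 had 0.970, 3.89 and 3.02 CPM in T4, 4.27, 6.0 and 2.33 CPM in glia, and 0.257, 0.202 and 0.444 CPM in neurons. It was higher by 3.06 ± 0.60 on the log2 scale in T4 (edgeR adjusted p = 0.00455) and by 4.13 ± 0.63 in glia (edgeR adjusted p = 0.000121), both against neurons. CG14864 had 24.2, 26.3 and 26.5 CPM in T4 and 10.4, 10.3 and 12.6 CPM in neurons, a log2 difference of 1.15 ± 0.25 (edgeR adjusted p = 0.00784). The non-coding CG31526 had 5.82, 4.67 and 5.90 CPM in T4, none in glia, and 2.03, 2.27 and 2.56 CPM in neurons, a log2 difference of T4 against neurons of 1.19 ± 0.27 (edgeR adjusted p = 0.0128). CG9673, of the serine protease family, had 5.53, 5.95 and 4.32 CPM in T4 and 2.68, 2.18 and 2.72 CPM in neurons. It was the last, at 0.998 ± 0.311 on the log2 scale (edgeR adjusted p = 0.0468). Its call rests on each of several libraries, since leaving out any single Pm2, T4 or neuron library gave an edgeR adjusted p of 0.0546 to 0.135.

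The 4 smallest adjusted p values among members lower in glia than in neurons belonged to abundant genes. CG6765 had 167, 138 and 124 CPM in T4, 2.57, 1.80 and 2.18 CPM in glia, and 136, 144 and 132 CPM in neurons. The log2 difference was -5.61 ± 0.18 in glia against neurons (edgeR adjusted p = 6.51e-10) and 5.61 ± 0.18 in T4 against glia (edgeR adjusted p = 6.14e-10). CG13995 had 132, 144 and 154 CPM in T4, 3.97, 5.45 and 2.86 CPM in glia, and 330, 331 and 266 CPM in neurons. CG42346 had 82.0, 77.6 and 89.1 CPM in T4, 9.70, 8.54 and 7.60 CPM in glia, and 116, 120 and 119 CPM in neurons. In all 3 genes glia lay far below T4 and neurons, without overlap. For CG13995 and CG42346 the log2 differences of glia against neurons were -5.90 ± 0.21 and -3.43 ± 0.12 (edgeR adjusted p = 1.11e-09 and 1.28e-09). CG34370 had 199, 189 and 184 CPM in T4 and 6.71, 12.2 and 8.20 CPM in glia. CG8861 differed by -4.51 ± 0.19 in glia against neurons (edgeR adjusted p = 4.60e-09), and CG34370 by 3.995 ± 0.184 in T4 against glia (edgeR adjusted p = 7.84e-09).

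Against that direction, CG1827 had 36.5, 46.2 and 40.4 CPM in Pm2, 4.0, 3.14 and 3.48 CPM in T4, 11.0, 11.4 and 11.2 CPM in glia, and 5.37, 5.46 and 6.38 CPM in neurons. It was higher in glia than in neurons by 1.32 ± 0.16 on the log2 scale (edgeR adjusted p = 2.21e-05) and differed by -2.08 ± 0.17 in T4 against glia (edgeR adjusted p = 6.17e-07). CG10543 was higher in glia than in neurons by 1.03 ± 0.18 (edgeR adjusted p = 0.000304) and differed by -1.98 ± 0.18 in T4 against glia (edgeR adjusted p = 1.88e-06). Neither the libraries of CG1827 nor those of CG10543 overlapped between glia and neurons.

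Position in the genome was not used by the rule. Of the 159, 38 (23.9%) lie wholly inside the span of another measured gene, against 206 of 2770 other CG genes at 2 CPM or more in Pm2 that could be placed (7.44%). The share differed by level. Between 2 and 10 CPM it was 24 of 57 members (42.1%) against 113 of 581 others (19.4%), between 10 and 100 CPM 13 of 49 (26.5%) against 75 of 1643 (4.56%), and at 100 CPM or more 1 of 53 (1.89%) against 18 of 546 (3.30%). This is a description without a test, since members are not independent of one another along the chromosome. By chromosome the members numbered 25 on 2L, 28 on 2R, 27 on 3L, 42 on 3R and 37 on X, with none on 4 or Y.

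**Figure D4:**
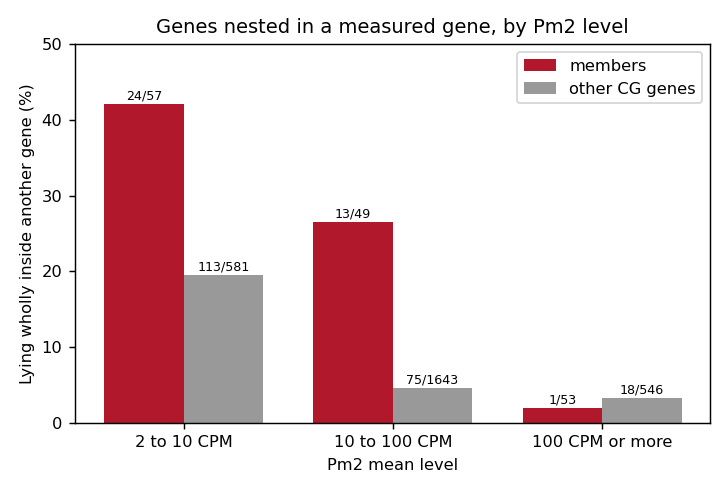
Bars give the percent of members (red) and of other CG genes (grey) that lie wholly inside another measured gene, by Pm2 mean level, with the counts above each bar. The share of members is 42.1% at 2 to 10 CPM, against 19.4% of other CG genes, and 1.89% at 100 CPM or more, against 3.30%.

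These 38 members have 23 host genes, 5 of them members themselves. Those 5 are at least 2 times neurons in Pm2 by the rule. Among the 18 other hosts, Pm2 was at least 2 times neurons in 7, where the share among all genes tested was 13.4%, and below neurons in 4. Of the nested members, 16 lie on the host's strand and 2, CG11125 and CG11638, share exonic bases with it. Over pairs of nested member and host, with CG13135 paired to both CG34109 and CG44153, the median was 1.92% of the host's CPM in Pm2. The cDNA kit does not mark strand, and whether the counting used strand is not given in the sources used here. Reads from a host's intron and from a gene nested in it cannot be told apart in such counts.

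In several cases host and nested gene were high together. Calx, the sodium-calcium exchanger, averaged 1825 ± 205 CPM in Pm2, 62.9 ± 20.6 CPM in T4, 15.2 ± 7.70 CPM in glia and 141 ± 33.3 CPM in neurons (SD, n = 3 each), and Pm2 was 12.9 times neurons. Inside it, CG43446 averaged 11.2 CPM in Pm2 and stood at 13.5 times neurons, and Alp5 averaged 14.4 CPM in Pm2 and stood at 32.1 times neurons. CG44153, a member at 752 ± 30.9 CPM in Pm2, 7.57 ± 4.77 CPM in T4, 4.94 ± 1.95 CPM in glia and 122 ± 12.3 CPM in neurons, holds CG34109, CG13135, CG4839 and CG13137. These 4 stood at 3.12 to 4.78 times neurons, where CG44153 itself was at 6.16. CG44837, at 767 ± 26.1 CPM in Pm2 and 194 ± 12.3 CPM in neurons (SD, n = 3 each), holds CG5906, Sprn (CG14128) and CG5897, at 3.56 to 4.38 times neurons beside 3.95 for the host. Within the same span lies byn, a T-box transcription factor of the hindgut, at 24.9 ± 1.66 CPM in Pm2, 0.529 ± 0.714 CPM in T4, 0.440 ± 0.763 CPM in glia and 6.09 ± 1.61 CPM in neurons.

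The largest nested group did not follow its host. kirre, an immunoglobulin-superfamily adhesion gene that spans 394 kb of chromosome X (2740384 to 3134532 in Ensembl release 115, assembly BDGP6), averaged 169 ± 10.6 CPM in Pm2, 146 ± 19.5 CPM in T4, 1.84 ± 0.52 CPM in glia and 128 ± 12.7 CPM in neurons (SD, n = 3 each). Its ratio of Pm2 to neurons was 1.33. The 9 members inside it, between 2871884 and 2944569, were at 2.04 to 7.65 CPM in Pm2 and at 6.53 to 17.6 times neurons. CG14421 had 9.17, 6.79 and 7.0 CPM in Pm2, 0.0619, 0.696 and 0.488 CPM in T4, 0, 0.312 and 0.147 CPM in glia, and 0.971, 0.854 and 0.131 CPM in neurons. CG3588 had 6.24, 8.19 and 7.38 CPM in Pm2, 0.186, 1.06 and 0.0887 CPM in T4, 0, 0 and 0.147 CPM in glia, and 0, 1.42 and 0.314 CPM in neurons. In both, every Pm2 library was above every other library. Among 12 further measured genes inside kirre, 10 reached 0.1 CPM and 8 of those were at least 2-fold higher in Pm2 than in neurons. One of them is rst, the adhesion gene related to kirre, at 255, 237 and 246 CPM in Pm2, 14.0, 19.4 and 12.3 CPM in T4, 0.0200, 0.451 and 0.422 CPM in glia, and 25.2, 30.6 and 23.8 CPM in neurons. Its ratio of Pm2 to neurons, 9.27, lay within the members' range, and its part in their counts was not tested.

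**Figure D5:**
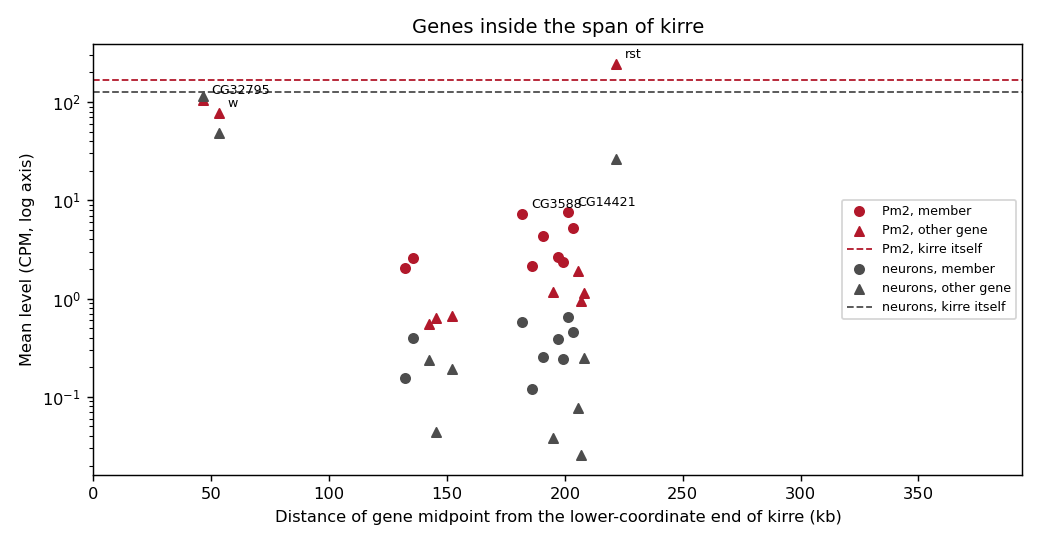
Mean levels (vertical, CPM, log axis) in Pm2 (red) and neurons (grey) of the genes inside kirre that reach 0.1 CPM in either, placed by distance from kirre's lower-coordinate end (horizontal, kb); circles are members, triangles other genes and dashed lines kirre itself. The kirre lines differ by 1.33 times, while members and rst show Pm2 above neurons by 6.53 to 17.6 times and 9.27 times.

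Some members lay near one another. Allowing gaps of up to 50 kb, 58 members fell into 17 groups, of which 9 held 3 or more, and 24 of the 58 are nested members counted above. No like count was made for other genes, so these numbers do not say whether members lie closer together than other genes do. The largest group without nesting was on chromosome 3L, from 22454373 to 22549342, where 8 of 15 measured genes were members. CG11438, the WUN-like gene named above, was the most abundant, at 85.4, 100.2 and 94.4 CPM in Pm2, 3.67, 3.48 and 5.08 CPM in T4, 3.45, 0 and 0 CPM in glia, and 8.63, 10.3 and 7.37 CPM in neurons. Next to each other in the same group, CG43331, CG43330 and CG43329 had 15.4, 16.1 and 16.1 CPM, 10.6, 12.3 and 11.2 CPM, and 17.8, 16.1 and 13.5 CPM in Pm2. In neurons these 3 had 1.80, 2.27 and 1.41 CPM, 1.03, 1.19 and 0.784 CPM, and 1.46, 1.69 and 1.02 CPM. Their Pm2 libraries were all above their neuron libraries, at 8.67, 11.3 and 11.4 times by means, beside 10.7 for CG11438 and 3.07 for its relative CG11425.

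In all, 44 members share exonic bases with an annotated gene, and in 2 of them, CG17724 and Dred (CG9279), over 50% of exonic bases are shared. Their counts may mix both genes of the overlap and are uncertain for that reason.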

How the data were processed

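Per the submitters' processing notes, reads were handled with Trimmomatic 0.32, STAR 2.5.2 and HTSeq 0.6.1 on BDGP6; settings and use of strand are not given in the sources used here. The authors deposited 1 table of counts per gene for the 12 libraries. Its name calls the values normalized, but they are whole numbers whose totals differ between libraries, and they were analysed as counts. The 3 neuron columns were matched to their group and not to single samples. No per-sample column was left unused (0).

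From the counts, levels were computed as CPM (counts per 1000000 of the column total). Tests used edgeR 4.0.16 (R 4.3.3, limma 3.58.1) on genes that reached 10 counts in 3 or more libraries, with TMM scaling, 1 fit of all 12 libraries and Benjamini-Hochberg adjustment over 10528 genes. The script was tested on simulated data. Alternatives included DESeq2 1.42.0. Gene positions came from Ensembl release 115 and current names and synonyms from RefSeq, and 16081 of 16272 names were matched. Pm2, T4 and glia titles share replicate numbers. The labels do not say whether these pair the libraries, and the main fit has no pairing.

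The members and marker lists were chosen with earlier results of these data known. Genes named are the 10 highest in Pm2 CPM, the 10 largest ratios, the 3 nearest each side of each threshold, the 4 smallest adjusted p per contrast and direction, the 3 highest per annotated class, the 5 most variable, neighbouring or overlapping members, and genes that hold or lie beside them. CG11294 and CG5196 were chosen after their values were seen. One gene that this rule covers is not reported here.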

Additional observations from a re-analysis of the deposited data

How the results depend on the processing

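Of the counts of members and of called members recomputed under another scaling, filter, test, set of libraries or threshold, 188 of 195 stayed within 1.5 times the reported value. The 7 others were as follows. The rule found 60 members at a ratio of at least 4, 293 at a ratio of at least 1.5, and 102 at a Pm2 mean of at least 10 CPM, in place of 159, because the threshold itself moved. Scaling by library totals alone left 11 members lower in T4 against glia in place of 17. In a fit of only the 6 libraries compared, T4 against glia called 61 members in place of 97, with 48 higher in T4 in place of 80. T4 against neurons had 11 higher in T4 in that fit in place of 4. The fit of only 6 libraries filtered again on those libraries, which kept 121 members in T4 against glia and 147 in T4 against neurons. Calls over all genes moved in the same direction in these settings, as given with the tests. In T4 against glia with only 6 libraries, calls over all genes fell by a smaller share than calls of members. The cause was not tested. TMM-adjusted totals gave 179 members, 154 of them among the 159. Leaving out 1 library gave 159 to 165 members, 31 to 55 called in T4 against neurons, 96 to 108 in glia against neurons and 89 to 102 in T4 against glia. The 31 came without neuron column 3, where all genes gave 576 higher and 1066 lower of 10376. The 55 came without glial library 2, where all genes gave 1239 higher and 1853 lower of 10211. Library totals alone moved the median log2 of all genes to -0.52 in glia against neurons and 0.47 in T4 against glia, where TMM gave -0.17 and 0.06.

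Of 472 recomputed differences of named genes, 461 kept their call and none reversed. The other 11 were all CG9673 in T4 against neurons, whose edgeR adjusted p was 0.0896 without the filter on low counts, whose limma adjusted p was 0.0748, and whose edgeR adjusted p was 0.0546 to 0.135 without any 1 Pm2, T4 or neuron library.

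With the replicate number as a block, a fit of the 9 Pm2, T4 and glia libraries called 82 members in T4 against glia, and without the block 95. Over all 10050 genes it called 3352 higher and 3036 lower with the block, and 3558 higher and 3246 lower without. The correlation of same-numbered libraries' deviations was -0.072 to 0.038. The labels do not say whether a shared number means shared handling, and these correlations cannot exclude it.

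For low members depth limits what can be said: 37 had no count in glia, which allows a level of up to 0.0185 CPM there.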
